A study of Drosophila melanogaster with 6 samples.

Results

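*Gr21a* and *Gr63a* encode the 2 subunits of the receptor with which the fly antenna detects carbon dioxide. The pair was chosen by symbol, and both members were found among the 17698 gene identifiers of the deposited counts. Their levels were compared between antennae of control females and of females subjected to RNA interference (RNAi) against *Eip93F* (E93, ecdysone-induced protein 93F), a transcription factor of the steroid hormone response of metamorphosis. Both belong to the gustatory receptor (Gr) family, most of whose members serve taste neurons.

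In the fly, the ab1 sensillum is a large hair of the antenna that houses several olfactory neurons. Its ab1C neuron expresses *Gr21a* and *Gr63a* in place of an odorant receptor and drives avoidance of carbon dioxide. Both subunits are needed, since neither confers a response to carbon dioxide when expressed without the other. The other neurons of ab1 use the odorant receptors *Or42b*, *Or92a* and *Or10a*, and *Or10a* is co-expressed with the gustatory receptor *Gr10a*.

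RNA was sequenced from whole antennae of 2 to 5 day old females, in 2 groups of 3 biological replicates, control and E93RNAi. Per the labels, 350 females of each genotype were grown in parallel for each pair of replicates, so every sample pools many animals. Both groups carried *peb*-Gal4 with UAS-Dcr2, heterozygous. *peb*-Gal4 drives transgenes in olfactory neurons, and Dcr2 (*Dcr-2*) strengthens RNAi. The remaining construct differed between the groups, and here the labels go against each other: the genotype text gives UAS-E93KK108140, an RNAi hairpin against E93, to the control and VIE-260B to E93RNAi, whereas the titles and the E93RNAi tag name the samples the other way round, and the descriptions of the control samples name VDRC60100, a construct or line that the genotype text does not mention. The groups follow the titles.

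Gene counts summed to 16639918 to 18400979 reads per sample, so that 3 counts, taken as the floor, correspond to 0.163 to 0.180 CPM, the count scaled to library size, before TMM scaling (trimmed mean of M-values). This floor covers counting error only. The targeted gene *Eip93F* had 381.9 ± 15.8 CPM in control against 334.5 ± 15.1 CPM in E93RNAi (SD, n = 3), with a log2 fold change of -0.19 with an SE of 0.048 (adjusted p = 0.0119, edgeR's quasi-likelihood test). Without control replicate 2 or E93RNAi replicate 3 its adjusted p was 0.0564 or 0.0552 in edgeR. If the hairpin RNA was itself sequenced, its reads cannot be told apart from those of the gene. *w*, the usual marker gene of fly transgenes, was 1097 ± 19.8 CPM in control against 5993 ± 233.7 CPM in E93RNAi (SD, n = 3; adjusted p = 6.25e-12, edgeR). The levels of *Dcr-2* and *peb* did not pass the test (adjusted p = 0.687 and 0.139, edgeR).

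*Gr21a* (FBgn0041250) lies on arm 2L at 780482 to 782885 on the plus strand, in the Ensembl release 115 annotation of BDGP6 coordinates, the build that the submitters' processing notes name. It has 2 annotated transcripts of 4 exons each, 2220 and 1426 bases long, which differ in where the 5′ untranslated region starts. The coding part takes 1344 bases, the 5′ untranslated region up to 815 and the 3′ untranslated region 61. *Gr63a* (FBgn0035468) lies on arm 3L at 3894999 to 3896603 on the minus strand, with 1 transcript of 3 exons and 1470 bases. That gene model holds coding sequence alone, so reads from its untranslated ends have no place in it. No other gene overlaps either member, so none shares their exons.

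Both subunits fell in E93RNAi, and *Gr21a* had the larger fold change. Among all 9237 tested genes, 10.5% were lower in E93RNAi at an adjusted p-value under 0.05, against 2 of 2 subunits. Such a fall was not particular to the pair among chemosensory receptor genes. *Or59b*, *Or22b* and *Or35a*, for example, also fell past the threshold, whereas *Ir75a* and *Or43b* rose past it. In E93RNAi the *Gr21a* level was 51.2% lower (95% interval 47.6% to 54.5%, edgeR fit) and the *Gr63a* level 25.8% lower (95% interval 20.3% to 30.9%). In whole-antenna RNA, fewer ab1C neurons and less receptor RNA per neuron cannot be told apart.

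*Gr21a* received 1344, 1485 and 1575 reads in control replicates 1 to 3, against 716, 714 and 769 reads in E93RNAi replicates 1 to 3. Scaled by depth, these were 81.8, 84.9 and 86.3 CPM in control and 41.9, 39.9 and 41.7 CPM in E93RNAi. All 3 E93RNAi samples lay below the lowest control sample, as was the case for 17.6% of all tested genes. The group means were 84.3 ± 2.32 and 41.2 ± 1.12 CPM (SD, n = 3), with a log2 fold change of -1.03 with an SE of 0.046 (adjusted p = 8.86e-09, edgeR). Ordered from the largest fall, *Gr21a* was number 119 of the 9237 tested genes.

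*Gr63a* received 2625, 2507 and 2821 reads in control replicates 1 to 3, against 1905, 2034 and 2104 reads in E93RNAi replicates 1 to 3. The scaled levels were 159.7, 143.3 and 154.6 CPM in control and 111.6, 113.6 and 114.1 CPM in E93RNAi. The groups did not overlap here either, and the control samples were more spread out than the E93RNAi samples. The group means were 152.5 ± 8.40 and 113.1 ± 1.34 CPM (SD, n = 3), with a log2 fold change of -0.43 with an SE of 0.047 (adjusted p = 2.63e-05, edgeR). *Gr63a* was number 420 of the tested genes in the same order.

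**Figure D1:**
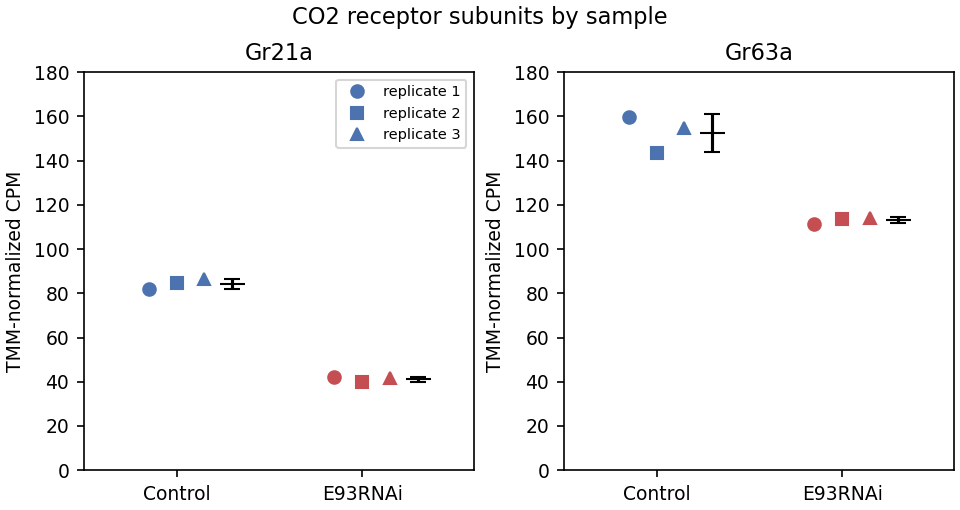
Level of each subunit by sample, in TMM-normalized CPM, with control in blue and E93RNAi in red and a symbol for each replicate number. Black bars give the mean and SD of 3 samples, 84.3 and 41.2 CPM for Gr21a and 152.5 and 113.1 CPM for Gr63a, and the groups do not overlap for either gene.

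Per kilobase of annotated exon, *Gr63a* was the more abundant subunit in every sample. Its control level of 103.7 ± 5.72 CPM per kilobase (SD, n = 3) ranked number 6 among 75 tested genes of the odorant, ionotropic and gustatory receptor families, just below the ionotropic co-receptor *Ir25a* at 117.3 CPM per kilobase. *Gr21a*, with 38.0 ± 1.05 CPM per kilobase, ranked number 26. In E93RNAi the levels were 76.9 ± 0.913 and 18.5 ± 0.503 CPM per kilobase (SD, n = 3), at ranks 13 and 35. The place of *Gr21a* depended on the length used: divided by its shorter transcript, a length chosen after seeing the data, its level was 59.1 CPM per kilobase in control and 28.9 in E93RNAi, at ranks 16 and 28. Ordered by log2 fold change from the largest fall, *Gr21a* was number 14 and *Gr63a* number 22 of these 75 receptor genes.

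The summed level of the pair was 145.5, 135.7 and 144.0 CPM per kilobase in control replicates 1 to 3 and 94.8, 95.3 and 96.4 in E93RNAi replicates 1 to 3. The groups did not overlap, and the mean in E93RNAi was 67.4% of that in control (exact permutation test on the log2 scale, two-sided p = 0.1, n = 3). With 3 samples against 3 this is the smallest p the test can give, here and for every ratio that follows.

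The balance of the subunits did not overlap between the groups, with *Gr21a* the scarcer subunit throughout. Of the reads of the pair, *Gr21a* took 33.9%, 37.2% and 35.8% in control replicates 1 to 3 and 27.3%, 26.0% and 26.8% in E93RNAi replicates 1 to 3. The exact 95% binomial interval (Clopper-Pearson) of the lowest control share, in replicate 1, was 32.4% to 35.4%, and that of the highest E93RNAi share, also in replicate 1, was 25.6% to 29.1%. These intervals cover counting error only and did not meet. The means were 35.6% ± 1.68 and 26.7% ± 0.671 (SD, n = 3).

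**Figure D2:**
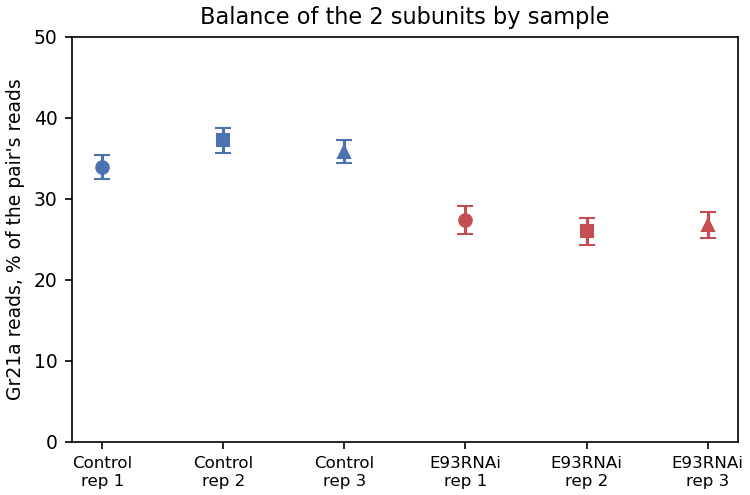
Share of Gr21a among the reads of both subunits, in percent, for each sample, with exact 95% binomial intervals that cover counting error only. Control samples (blue) lie between 33.9% and 37.2% and E93RNAi samples (red) between 26.0% and 27.3%.

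Per kilobase, *Gr63a* exceeded *Gr21a* by 2.95, 2.55 and 2.70-fold in control replicates 1 to 3 and by 4.02, 4.30 and 4.13-fold in E93RNAi replicates 1 to 3. The mean ratio was 2.73 ± 0.202 in control and 4.15 ± 0.143 in E93RNAi (SD, n = 3). On the log2 scale, *Gr21a* over *Gr63a* was 0.60 lower in E93RNAi, a difference of -0.60 without overlap between the groups (exact permutation test, two-sided p = 0.1, n = 3). Sample scaling cancels in this ratio. The size of the ratio depends on the lengths used: with the shorter *Gr21a* transcript it was 1.76 in control and 2.67 in E93RNAi, and with coding lengths 1.66 and 2.51. These lengths are the same in both groups, so the difference between the groups on the log2 scale is unaffected by them unless the use of the *Gr21a* start sites differed, which gene counts cannot show.

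The other ab1 neurons were compared through their receptors, which share the sensillum with ab1C. *Or42b*, the receptor of ab1A, and *Or92a*, the receptor of ab1B, both fell. Both tested members of the list of 4 ab1 neighbours were thus lower, where 10.5% of all tested genes were lower, with a median log2 fold change of -0.38 against 0.00028 over all tested genes. Receptor genes outside this list, such as *Or59b* and *Or35a*, fell past the threshold too, and others, such as *Ir75a*, rose. *Or42b* had 51.5, 48.3 and 53.2 CPM in control replicates 1 to 3 and 28.9, 38.8 and 39.8 CPM in E93RNAi replicates 1 to 3. Replicate 1 stood lowest in E93RNAi, and the groups did not overlap. The log2 fold change was -0.51 with an SE of 0.097 (adjusted p = 0.00191, edgeR), and -0.38 without E93RNAi replicate 1 (adjusted p = 0.000532, edgeR).

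*Or92a* had 286.6, 252.2 and 254.5 CPM in control replicates 1 to 3 and 229.0, 212.2 and 220.2 CPM in E93RNAi replicates 1 to 3. The groups did not overlap, with a log2 fold change of -0.26 with an SE of 0.055 (adjusted p = 0.00355, edgeR). *Or10a* and *Gr10a*, the receptors of ab1D, were listed at 0 counts in every sample. In the annotation, 100% of the exon bases of each are shared with the other on the same strand. If the counting used the same overlap and left out ambiguous reads, reads from either could not be assigned to a single gene. The annotation used for counting is not given, and their level is not known from these counts.

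Relative to the summed level of these neighbours, the pair was lower in E93RNAi. *Or10a* and *Gr10a* add 0 to that sum. Most of it is *Or92a*, at 214.3 CPM per kilobase in control against 42.5 for *Or42b*. The log2 ratio of the pair to the ab1 neighbours, in CPM per kilobase, was -0.92, -0.85 and -0.80 in control replicates 1 to 3 and -1.15, -1.10 and -1.13 in E93RNAi replicates 1 to 3. The groups did not overlap, and the difference was -0.27 (exact permutation test, two-sided p = 0.1, n = 3). Taken by subunit, the log2 ratio of *Gr21a* to *Or42b* differed by -0.51 and that to *Or92a* by -0.77, without overlap between the groups in either case. The ratio of *Gr63a* to *Or92a* differed by -0.17, also without overlap. The ratio of *Gr63a* to *Or42b* overlapped between the groups, with a difference of 0.093 (exact permutation test, two-sided p = 0.9, n = 3). The 4 genes give 6 such ratios, and the exact p of 0.1 does not go lower after adjustment over them.

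Markers of other cells moved at the same time. Of 9 neuron markers 4 were lower and 0 higher in E93RNAi, against 10.5% lower and 13.8% higher among all tested genes, with a summed level of 7039 to 7401 CPM in control and 6327 to 6717 CPM in E93RNAi. The 4 were the acetylcholine transporter and synthesis genes *VAChT* and *ChAT* and the co-receptors *Orco* and *Ir25a*, with log2 fold changes from -0.30 to -0.16. The pan-neuronal genes *elav*, *nSyb*, *brp*, *Syt1* and *para* did not pass the test, with log2 fold changes from -0.084 to 0.091. Of 6 support cell markers 5 were higher, summing to 22068 to 22743 CPM in control and 27206 to 28968 CPM in E93RNAi, and all 3 glia markers were higher, summing to 315.1 to 373.0 and 417.1 to 523.4 CPM. For both lists the share of all tested genes that rose was 13.8%. With the replicate block, *Obp83b* passed the test as well (adjusted p = 0.0163, edgeR), so that all 6 support cell markers were higher. The part of these changes in the fall of the pair was not tested.

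Set against neuronal RNA of the same sample, the pair was also lower. The log2 of its summed level over the geometric mean of *elav*, *nSyb*, *brp*, *Syt1*, *VAChT* and *para*, all per kilobase, was 1.497, 1.27 and 1.46 in control replicates 1 to 3 and 0.85, 0.87 and 1.003 in E93RNAi replicates 1 to 3. The groups did not overlap, with a difference of -0.50, or 0.709-fold (exact permutation test, two-sided p = 0.1, n = 3).

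Markers of the eye and the maxillary palp, organs that sieving could carry over, were scarce. The 4 eye markers summed to 2.49 to 3.14 CPM in control and 5.26 to 7.03 CPM in E93RNAi. Of these, *ninaE*, the main opsin of the eye, had 1 to 5 counts per sample. The 7 genes listed as maxillary palp receptors summed to 30.8 to 37.5 CPM in control and 26.9 to 29.3 CPM in E93RNAi, most of it from *Or46a*, whose exons lie wholly within exons of genes on the opposite strand. In that list *Or46a* was lower and *Or85e* higher, with 3 other members tested and not called, against 24.3% of all tested genes called in either direction. The *Or85e* call (adjusted p = 0.0491, edgeR) was lost without replicate 2 or 3 of either group (adjusted p = 0.126 to 0.173) and with the replicate block (adjusted p = 0.0548). Upper-quartile scaling and a filter of a mean of at least 10 counts also lost it (adjusted p = 0.0504 in each, edgeR). None of the eye or palp markers was at 0 in all samples. The genes listed for sweet neurons of labellum and leg, *Gr5a*, *Gr64f* and *Gr61a*, summed to 86.6 to 95.1 CPM in control and 78.3 to 83.3 CPM in E93RNAi. Most of this came from *Gr64f*, which the antenna also expresses, so this sum does not separate carried-over tissue from antenna.

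Other gustatory receptors were mostly at or near the floor. In control, all Gr genes summed to 358.1 to 382.7 CPM per sample, of which the pair gave 228.1 to 241.4 CPM. Of 58 other Gr genes listed, 10 had enough assigned reads to be tested, and 6 were lower and 1 higher in E93RNAi, against 24.3% of all tested genes changed in either direction. Their median log2 fold change was -0.25. Of all 60 Gr genes 22 had 0 counts in every sample, and 5 of these share over 95% of their exon bases with a gene on the same strand.

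The sugar receptor gene *Gr64f*, which the antenna also expresses, had the highest level of these 10. It had 89.1 ± 3.90 CPM in control against 77.2 ± 2.18 CPM in E93RNAi (SD, n = 3), with a log2 fold change of -0.21 (adjusted p = 0.00616, edgeR). Another sugar receptor gene, *Gr64a*, fell by 0.72 in log2 units (adjusted p = 0.000349, edgeR) from 11.7 ± 0.470 CPM (SD, n = 3). The bitter receptor gene *Gr66a* fell by 0.59 (adjusted p = 0.00884, edgeR) from 5.23 ± 0.173 CPM, and *Gr28b* by 0.29 (adjusted p = 0.0290, edgeR) from 13.2 ± 0.510 CPM. The *Gr28b* call was lost in DESeq2 (adjusted p = 0.119), and in edgeR without control replicate 1 or 3 or E93RNAi replicate 2 or 3 (adjusted p = 0.0588 to 0.104). *Gr93a*, a bitter taste receptor gene, received 83, 84 and 75 reads in control replicates 1 to 3, against 2, 4 and 5 reads in E93RNAi replicates 1 to 3, a log2 fold change of -4.45 (adjusted p = 2.61e-07, edgeR). *Gr33a*, a bitter co-receptor gene, received 12, 11 and 12 reads in control, against 0, 2 and 0 reads in E93RNAi, the latter all at or under the floor of 3 counts (adjusted p = 0.00107, edgeR).

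The only tested Gr gene past the threshold in the other direction was the sugar receptor gene *Gr61a*. It had 1.502 ± 0.401 CPM in control against 3.53 ± 0.368 CPM in E93RNAi (SD, n = 3), with a log2 fold change of 1.23 (adjusted p = 0.00137, edgeR). *Gr43a*, a fructose receptor gene, *Gr32a* and *Gr47b* did not pass the test, with log2 fold changes of 0.41, 0.22 and 0.090 (adjusted p = 0.0694, 0.735 and 0.850, edgeR). With the replicate block *Gr43a* passed it (adjusted p = 0.0488, edgeR).

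The antenna has another route to carbon dioxide, through the acid that it forms in water. *Ir64a*, an ionotropic receptor of the sacculus, detects acid together with its co-receptor *Ir8a*. Both rose in E93RNAi, opposite to the pair, where 13.8% of all tested genes rose. *Ir64a* had 128.5, 127.4 and 126.5 CPM in control replicates 1 to 3 and 153.8, 152.2 and 150.02 CPM in E93RNAi replicates 1 to 3. The groups did not overlap, as for 37.5% of all tested genes in either direction, with a log2 fold change of 0.25 with an SE of 0.039 (adjusted p = 0.000391, edgeR). *Ir8a* had 250.7 ± 10.8 CPM in control against 345.3 ± 15.2 CPM in E93RNAi (SD, n = 3), with a log2 fold change of 0.46 with an SE of 0.049 (adjusted p = 1.85e-05, edgeR). *Ir8a* serves other ionotropic receptors of the antenna as well.

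**Figure D3:**
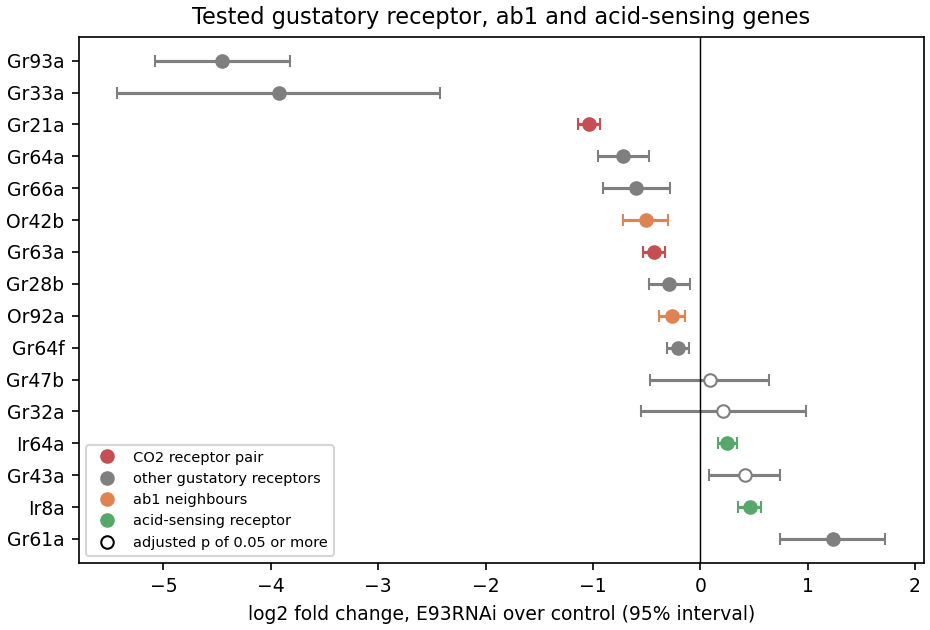
Log2 fold change of E93RNAi over control with its 95% interval from the edgeR fit, for every tested gustatory receptor gene, the tested ab1 neighbours Or42b and Or92a, and the acid-sensing genes Ir64a and Ir8a. Filled points passed an adjusted p of 0.05, and Gr21a at -1.03 and Gr63a at -0.43 are in red.

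Downstream of the receptor, the response of ab1C to carbon dioxide involves the G protein subunits *Galphaq* and *Ggamma30A*. Neither passed the test, at log2 fold changes of -0.13 and -0.068 (adjusted p = 0.0911 and 0.348, edgeR). For *Galphaq*, 44.1% of the exon bases are shared with another gene on the same strand. Of 9 listed genes of G protein and phospholipase signalling 7 were tested, 1 rose and 1 fell, where 24.3% of all tested genes changed, with a median log2 fold change of -0.068. *norpA*, a phospholipase C, fell by 0.24 on the log2 scale from 338.8 ± 16.1 CPM (SD, n = 3; adjusted p = 0.00316, edgeR). *trp*, a cation channel of the phototransduction pathway, rose by 0.75 from 5.31 ± 0.739 CPM (SD, n = 3; adjusted p = 0.00113, edgeR). The summed eye markers, from an organ in which *trp* is abundant, were also higher in E93RNAi, mostly through *ninaC*. Reads of *ninaC* totalled 128 in control and 292 in E93RNAi. For *ninaE* and *chp* the totals were 8 and 11 reads in control, against 9 and 10 in E93RNAi. *trpl* had 3 reads in control and 11 in E93RNAi. None of *ninaE*, *chp* and *trpl* had enough reads to be tested. The part of carried-over eye tissue in the rise of *trp* was not tested. *Gbeta13F* and *Itpr* did not pass the test, at log2 fold changes of -0.021 and -0.089 (adjusted p = 0.776 and 0.263, edgeR).

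Carbonic anhydrases interconvert carbon dioxide and bicarbonate. Of 15 genes listed under this name 8 were tested, and 2 fell and 0 rose, where 10.5% of all tested genes fell, with a median log2 fold change of -0.17. *CAH7* fell by 0.26 on the log2 scale from 98.7 ± 6.14 CPM (SD, n = 3; adjusted p = 0.00285, edgeR). *CARPB*, a related gene, fell by 0.45 from 6.78 ± 0.774 CPM (SD, n = 3; adjusted p = 0.0312, edgeR), a call lost in DESeq2 (adjusted p = 0.0797) and, in edgeR, without replicate 2 or 3 of either group (adjusted p = 0.0624 to 0.141). The most abundant member, *CAH1*, had 1298 ± 32.7 CPM in control against 1233 ± 13.98 CPM in E93RNAi (SD, n = 3; adjusted p = 0.252, edgeR), but 76.7% of its exon bases lie opposite another gene. *CAH2* and *CAH3* did not pass the test, at log2 fold changes of 0.048 and 0.043 (adjusted p = 0.707 and 0.539, edgeR). *CAH9* did not pass it either (adjusted p = 0.2199, edgeR), but with the replicate block it was lower by a log2 fold change of -0.38 (adjusted p = 0.0122, edgeR).

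Expression of the carbon dioxide receptor in the right neurons depends in the fly on the Myb-MuvB complex, whose subunits repress or activate target genes. All 11 listed subunits and partners were tested, and 1 rose and 0 fell, against 24.3% of all tested genes changed, with a median log2 fold change of 0.029. *Myb*, the DNA-binding subunit, rose by 0.15 on the log2 scale from 85.6 ± 1.798 CPM (SD, n = 3; adjusted p = 0.0254, edgeR). DESeq2 gave *Myb* an adjusted p of 0.0822, and edgeR one of 0.0843 to 0.103 without replicate 2 or 3 of either group. In the annotation, 99.2% of the exon bases of *Myb* are shared with another annotated gene on the same strand. *Myb* still received 1440 to 1778 reads per sample, so this overlap did not keep reads from being assigned to it. The other members with the highest levels, *Dp*, *E2f1* and *Rbf*, had log2 fold changes of 0.084, 0.0027 and 0.15 (adjusted p = 0.181, 0.980 and 0.0802, edgeR).

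Factors that shape olfactory neuron fate and receptor choice were listed as well. Of 14 listed factors 13 were matched to an identifier and 11 were tested, of which 2 fell and 1 rose, a share near the 24.3% of all tested genes that changed. The median log2 fold change was -0.013. The microRNA gene *mir-279*, whose loss in the fly yields extra carbon dioxide neurons in the maxillary palp, had 0 counts in every sample. Its exon is shared with a long noncoding RNA gene, and poly(A) selection does not retain mature microRNAs.

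*nerfin-1*, a zinc finger factor and a known target of *mir-279*, rose. It received 10, 7 and 6 reads in control replicates 1 to 3, against 156, 120 and 119 reads in E93RNAi replicates 1 to 3. The groups were far apart, with a log2 fold change of 4.05 with an SE of 0.26 (adjusted p = 2.31e-07, edgeR). *pros*, which encodes the homeodomain factor Prospero that acts with *mir-279* to limit carbon dioxide neurons, fell. It had 136.9, 165.8 and 160.3 CPM in control replicates 1 to 3 and 103.9, 111.5 and 107.3 CPM in E93RNAi replicates 1 to 3, without overlap. The log2 fold change was -0.52 with an SE of 0.065 (adjusted p = 7.40e-05, edgeR). *Fer1*, a bHLH factor, fell by 0.19 (adjusted p = 0.00620, edgeR). *Xbp1*, *onecut* and *pdm3*, the most abundant of the others, did not pass the test, at log2 fold changes of 0.061, -0.013 and -0.061 (adjusted p = 0.460, 0.893 and 0.394, edgeR).

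**Figure D4:**
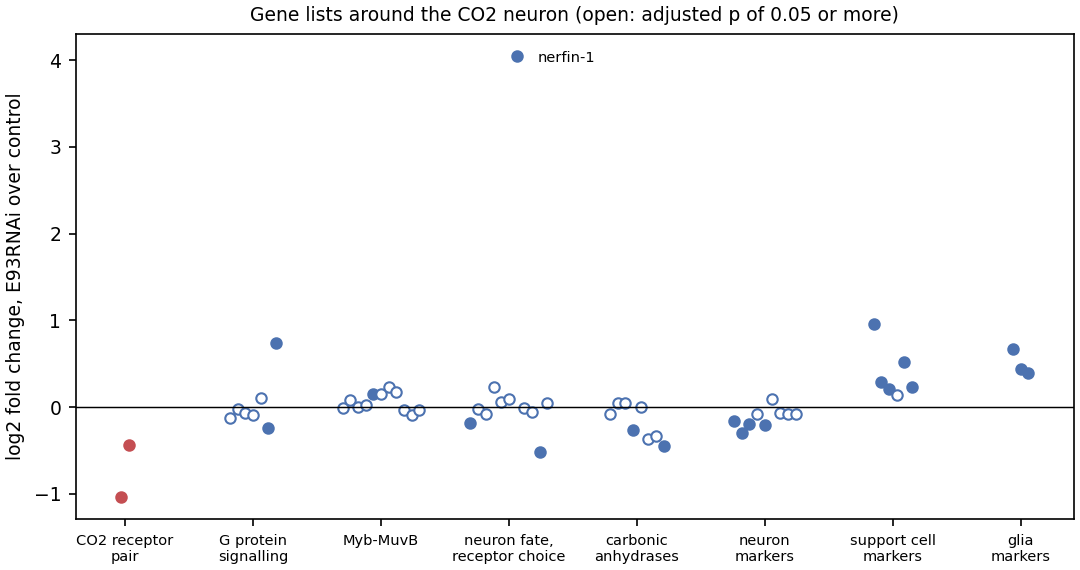
Log2 fold change of E93RNAi over control for the tested members of each gene list, 1 point a gene, with the carbon dioxide receptor pair in red. Open points did not pass an adjusted p of 0.05, and nerfin-1 at 4.05 lies above all other points shown.

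Genes that lie beside the subunits on the chromosome were read out next. Of the 3 nearest genes on either side of *Gr21a*, 2 were tested and 0 passed the test, where 24.3% of all tested genes passed it. *CG3544*, 1451 bases beyond its 3′ end, had a log2 fold change of -0.35 (adjusted p = 0.194, edgeR), and *Pkg21D*, a cGMP-dependent protein kinase gene, one of 1.21 (adjusted p = 0.0623, edgeR). *Gr63a* lies between *Fie*, 166 bases beyond its 3′ end, and *Lamtor4*, 297 bases before its 5′ end, both of them on the opposite strand. *Fie* was 251.5 ± 6.46 CPM in control against 273.8 ± 3.61 CPM in E93RNAi (SD, n = 3), a rise of 0.12 on the log2 scale (adjusted p = 0.0453, edgeR). Only 6 of 15 alternatives kept this call. Among the others, DESeq2 did not call it (adjusted p = 0.0690), nor did edgeR when any sample but control replicate 1 was left out (adjusted p = 0.0757 to 0.184). *Lamtor4* and *Ccz1* did not pass the test, at log2 fold changes of -0.13 and -0.045 (adjusted p = 0.433 and 0.701, edgeR), and *Ubi-p63E*, a polyubiquitin gene, rose by 0.50 (adjusted p = 4.23e-06, edgeR). No tested neighbour of either subunit fell past the threshold, where 10.5% of all tested genes did.

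Genes with the most similar profile were named for each subunit by the Euclidean distance between log2 CPM values over the 6 samples, each centred on its own mean, among 8706 other tested genes averaging at least 20 counts. For *Gr21a* the nearest was *Rh7*, a rhodopsin family gene, at a distance of 0.080. It had 14.7 ± 0.351 CPM in control against 7.12 ± 0.386 CPM in E93RNAi (SD, n = 3). *CG15169*, *Ir76a*, *thoc6* and *CG15170* followed at distances of 0.18 to 0.20. *Ir76a* is an ionotropic receptor of coeloconic sensilla, and *thoc6* shares 59.0% of its exon bases with genes on the opposite strand.

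For *Gr63a* the nearest was *Fa2h*, a fatty acid hydroxylase gene, at 0.058. It had 39.8 ± 1.87 CPM in control against 29.8 ± 0.739 CPM in E93RNAi (SD, n = 3). *Est-6* and *alpha-Est10*, both esterase genes, *CG3625* and the aldehyde dehydrogenase gene *Aldh* followed at 0.080 to 0.090. The subunits were not among each other's closest genes: at a distance of 0.76, *Gr63a* was number 235 from *Gr21a*, and *Gr21a* number 6725 from *Gr63a*. With 2 groups of 3 samples, this distance mostly ranks genes by the size of their difference between the groups.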

How the data were processed

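Members and gene lists were chosen with earlier results of these data known. Each deposited file holds the raw counts of reads per gene for 1 sample. The submitters' processing notes name cutadapt 1.8, STAR 2.5.3a, HTSeq 0.9.1 and the build BDGP6. The strand setting and the annotation used for counting are not given in the sources used here. Symbols were paired with 17560 of 17698 identifiers. The 5 summary lines, 13.1% to 13.8% of listed reads, were left out of library sizes.

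Genes were kept by edgeR's filterByExpr, TMM-scaled, and fitted on group alone in all 6 samples under R 4.3.3. The quasi-likelihood test of edgeR 4.0.16 gave p-values, with Benjamini-Hochberg adjustment over 9237 genes and a threshold of 0.05. DESeq2 1.42.0 and limma 3.58.1 served as alternatives. Levels are TMM-normalized CPM, divided by the union of annotated exons where compared between genes. Single ratios were tested by exact permutation over samples.

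Same-numbered samples were taken as pairs in an alternative fit with a replicate block, since the labels speak of pairs of replicates. The main fit and the permutation tests did not use pairing. Deviations from the group means correlated at 0.154, 0.128 and 0.123 between same-numbered samples over 8103 genes, and were not compared with those between differently numbered samples. Genes named are the pair, all tested ab1 neighbours, acid-sensing and Gr genes, the called members and up to 3 most abundant others of each list, checks of the labels, chromosomal neighbours and the 5 nearest profiles. The chromosomal neighbours were added after the data were seen, as were *elav*, *nSyb* and the other markers given by name. A promoter motif search was not run, and sequences were not used here.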

Additional observations from a re-analysis of the deposited data

How the results depend on the processing

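*Gr21a* and *Gr63a* were lower and past the threshold in all 16 alternatives each. Their log2 fold changes ranged from -1.06 to -1.01 and from -0.48 to -0.40 when each sample was left out in turn, and from -1.04 to -1.01 and -0.44 to -0.40 in the others, with adjusted p-values of at most 2.61e-07 and 0.000348. With the replicate block, 2430 genes changed against 2248 without it. Of the genes named or listed, the block ended the call of *Or85e* (adjusted p = 0.0548, edgeR) and added those of *Gr43a*, *CAH9* and *Obp83b* (adjusted p = 0.0488, 0.0122 and 0.0163). An adjusted p under 0.01 left 1482 genes. Leaving out each sample gave 1711 to 2155 genes.

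The subunit ratio differed by -0.66 to -0.55 without each sample in turn, the pair's sum by -0.60 to -0.55, its ratio to the ab1 neighbours by -0.30 to -0.24 and that to neuron markers by -0.57 to -0.45. Without division by length, the pair's sum differed by -0.62 and its ratio to the ab1 neighbours by -0.32. Mean differences within pairs equal the unpaired ones here. Called genes of the Myb-MuvB list numbered 2 with library totals, 0 with DESeq2, 0 at 0.01 and 0 to 1 without each sample, against 1. Those of the carbonic anhydrases numbered 1 with DESeq2, 1 at 0.01 and 1 to 3 without each sample, against 2. Across the 48 other named or marker genes that were called in the main fit, 0 reversed direction and 42 kept their call throughout. Named genes not called in the main fit are not part of this count. Lengths chosen after seeing the data moved the control ratio of *Gr63a* to *Gr21a* from 2.73 to 1.76 with the shorter transcript, 1.66 with coding lengths and 1.81 for counts. The rank of *Gr21a* among receptor genes in control moved from 26 to 16 with the shorter transcript. The cause of these shifts in counts was not tested. At this depth, 48 of 60 Gr genes had too few assigned reads to be tested. For the 5 of these at 0 that share over 95% of their exon bases with a gene on the same strand, the level is not known.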
